A study of Homo sapiens with 27 samples.

Results

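The RNA levels of 10 genes for AP-1 and immediate early factors (FOS, FOSB, FOSL1, FOSL2, JUN, JUNB, JUND, ATF3, EGR1 and IER2) were followed in estrogen-deprived lobular breast cancer cells. The 10 genes were chosen by name, with earlier results of these data known. Each matched 1 Ensembl identifier among the 60619 genes of the deposited count table. The study asked what changes when invasive lobular carcinoma cells learn to grow without estrogen (long-term estrogen deprivation, LTED). MM134 (MDA-MB-134VI) and SUM44 are estrogen receptor-positive cell lines of invasive lobular carcinoma. MM134 was measured as a parental culture and as 4 variants raised separately, named LTED-A and LTED-B and, further, LTED-D and LTED-E. SUM44 was measured as 2 variants, LTED-A and LTED-B, and 2 parental cultures, SUM44PE and SUM44F, of which SUM44F is SUM44PE moved to another medium with serum and served as the parental culture of the variants. All groups were in charcoal-stripped serum, which lacks steroid hormones: the parental cells for 3 days before RNA was taken, the LTED variants without a break since their derivation. Over those 3 days the parental cells were also rinsed repeatedly with serum-free medium and given fresh stripped serum. The methods of the study give no such step for the LTED variants before RNA was taken. This handling and the LTED state cannot be told apart in these contrasts. No genotype was altered. Each of the 9 groups has 3 libraries from wells of 1 culture, so that a p-value measures the spread between wells and each variant is 1 derivation of its line.

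AP-1 is a dimer of bZIP proteins, formed by a JUN protein with another JUN protein, a FOS protein or an ATF protein, that binds DNA at short palindromic sites. FOS, FOSB, JUN, JUNB, ATF3, EGR1 and IER2 are immediate early genes, whose transcription starts within minutes of a growth or stress signal without new protein synthesis. For FOS and EGR1 a growth signal acts through ERK and the serum response factor. FOSL1, FOSL2 and JUND are made later or more steadily. In breast cancer cells FOS is a classical estrogen-induced gene, and AP-1 can tether the estrogen receptor to DNA.

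The libraries held 28583554 to 134882175 estimated counts (median 44018412). The second and the third library of SUM44 LTED-A agreed more closely than independent draws of counts would, which give a chi-square per degree of freedom near 1. Their value was 0.312, against 2.35 to 58.1 for the 26 other replicate pairs. These libraries may therefore not be separate wells, and the reason was not tested. Their mean was taken as a single sample, which leaves n = 2 for this variant and 26 samples in all. The labelled cell type was borne out by its markers: KRT8 had 585 to 2943 CPM (counts scaled to a common library size), ESR1 148 to 1425 and CDH1, the adhesion gene that lobular carcinomas lose, 8.36 to 24.6. SUM44F parental replicate 1 stood apart, with 327 CPM summed over 5 fibroblast markers against 4.59 to 33.6 in all other samples, and 134.6 CPM for COL3A1. PTPRC, an immune cell marker, reached 2.60 CPM in that library. The 3 endothelial markers summed to 25.8 to 40.5 CPM in SUM44F and to 2.80 to 4.51 CPM in the SUM44 LTED variants, most of it PECAM1. In MM134 the immune marker sum was 0.343 to 0.972 CPM in parental cells and 2.40 to 15.4 in the LTED variants, nearly all CD68, with PTPRC at 0.365 CPM or less. The fibroblast marker sum was also lower in MM134 LTED cells, at 7.44 to 12.7 CPM apart from LTED-D replicate 2 (25.7), than in the parental wells (20, 23.0 and 33.6). COL1A1 made up most of it, with 19.2 to 22.6 CPM in MM134 parental wells and 6.84 to 15.1 in the variants, and was called down in all 4. MM134 parental replicate 3 and LTED-D replicate 2 had 5.54 and 5.22 CPM of COL3A1, against at most 0.224 in the other MM134 wells. SUM44 results are therefore given with and without SUM44F replicate 1 where this changed a call, and the part of these markers in the results was not tested. In such bulk RNA, fewer cells of a kind and less RNA per cell cannot be told apart.

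The stretches just before the transcription starts of FOS, JUN and EGR1 are shown because these are the genes that were lower in the most LTED variants or by the largest factor. They are from RefSeq (GRCh38.p14), where 9 of the 10 genes matched an entry. FOSL1 had no entry. FOS lies at chr14:75278578-75278825, plus strand, JUN at chr1:58784049-58784297, minus strand, and EGR1 at chr5:138465229-138465478, plus strand. Each is written 5′ to 3′ and ends at the base before the start in GENCODE, the annotation used for gene positions. Capitals mark TATAAA in FOS and CArG boxes, the sequence read by serum response factor, in EGR1, while JUN holds neither.
FOS: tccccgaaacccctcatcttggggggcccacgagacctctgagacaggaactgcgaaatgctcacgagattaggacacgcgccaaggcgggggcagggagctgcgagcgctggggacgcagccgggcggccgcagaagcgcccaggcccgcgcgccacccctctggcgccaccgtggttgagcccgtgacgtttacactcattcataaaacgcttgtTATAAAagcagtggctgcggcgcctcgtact
JUN: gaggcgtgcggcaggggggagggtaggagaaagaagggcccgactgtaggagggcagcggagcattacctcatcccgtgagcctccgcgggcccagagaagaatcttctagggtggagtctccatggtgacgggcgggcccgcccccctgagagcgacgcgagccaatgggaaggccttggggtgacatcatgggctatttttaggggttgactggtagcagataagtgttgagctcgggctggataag
EGR1: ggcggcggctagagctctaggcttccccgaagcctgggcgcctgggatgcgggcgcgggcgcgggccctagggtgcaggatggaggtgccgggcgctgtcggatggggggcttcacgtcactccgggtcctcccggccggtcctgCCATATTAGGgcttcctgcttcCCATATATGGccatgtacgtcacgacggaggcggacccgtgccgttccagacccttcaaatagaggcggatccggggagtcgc
A set of 6 motifs was searched on both strands of the 300 bases around each RefSeq start, from which positions are counted. This window reached 250 bases before the start, and sites farther upstream were not searched. TATAAA began 33 bases before the RefSeq start of FOS, which lies past the end of the stretch printed above. It was found in 4 of the 9 genes (FOS, FOSB, JUNB and ATF3) and in 11.5% of 35116 promoters. In FOSB and JUNB it began 30 and 31 bases before the start. ATF3, searched at a further start as well, had it 230 bases before that start only. The count is per gene and the share per promoter. The CArG box occurred at 105 and 83 bases before the start of EGR1, in no window of the other 8 genes, and in 1.29% of all promoters. TGACGTCA, a cyclic AMP response element, was found only in JUND (1.85% of all promoters). TGANTCA, the AP-1 site, was found only in FOSL2, 4 bases after its RefSeq start (7.71%). That start lies inside the gene as annotated in GENCODE. GCGNGGGCG, the EGR1 site, was found only in EGR1 (9.43%), and GGGCGG, the Sp1 site, in 7 of the 9 genes (45%). TGACGTCA and TGANTCA cannot share the same letters, whereas GGGCGG can overlap GCGNGGGCG. A match describes the letters and is not a measured binding site.

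The members spanned a wide range of levels. Per kilobase of exon, JUND RNA was the highest of the 10 in every group, from 16.6 CPM per kb in SUM44F to 50.8 in MM134 LTED-A. JUNB came second in 8 of the 9 groups, with 11.9 to 27.7 CPM per kb. FOSL2 ranged from 5.05 CPM per kb in MM134 parental to 15 in SUM44F, where it was above JUNB. FOS, in contrast, lay between 0.195 CPM per kb in SUM44 LTED-B and 1.41 in MM134 parental, and FOSL1, the lowest member in 7 of 9 groups, between 0.0488 and 0.218.

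**Figure D1:**
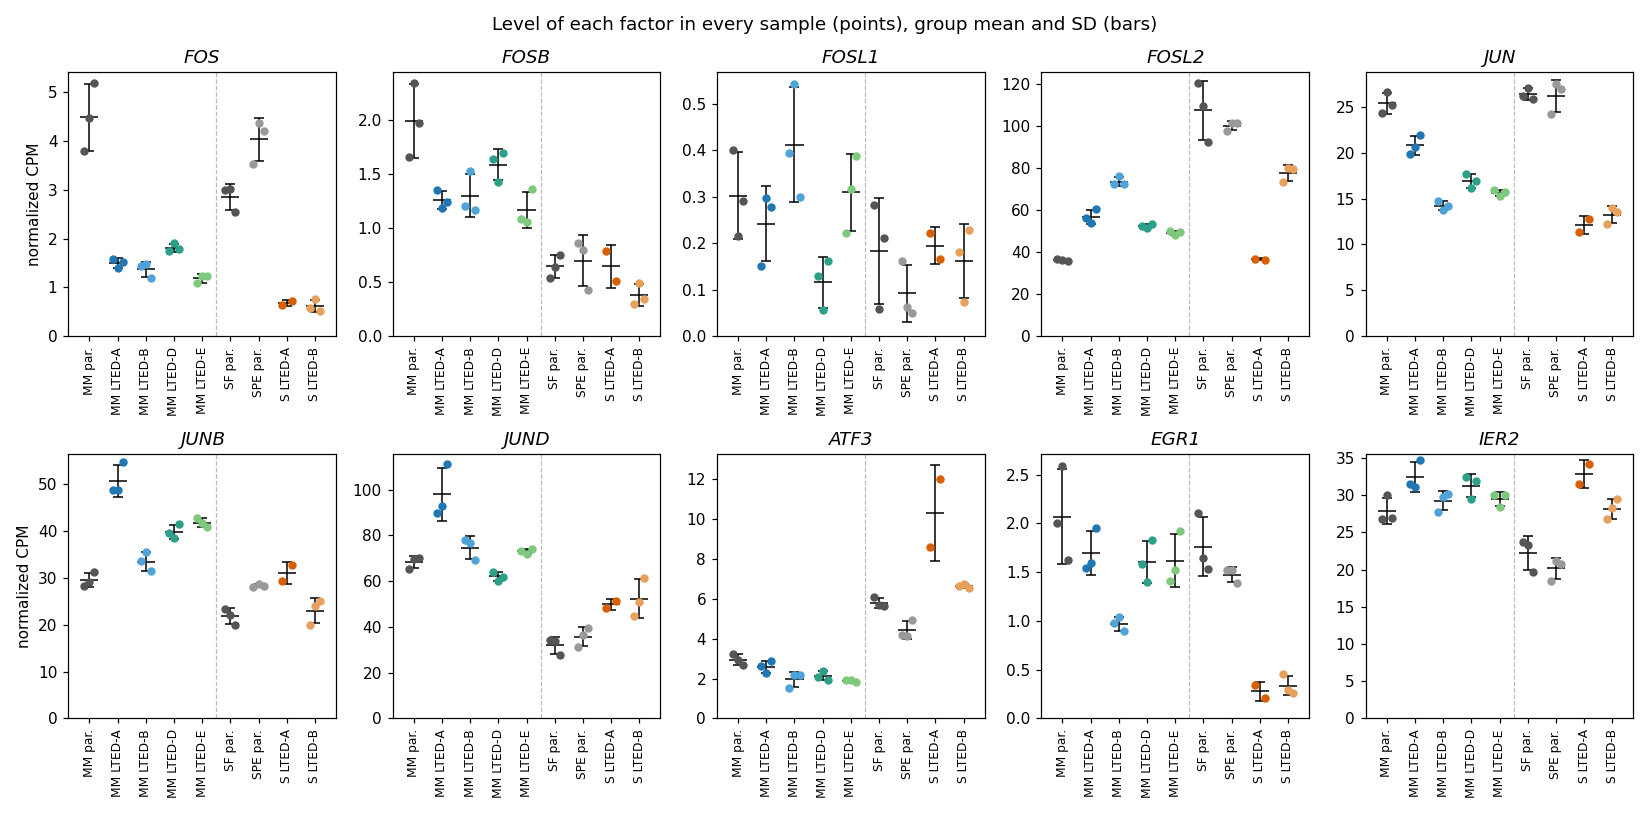
Level of each of the 10 genes in every sample, as CPM on linear axes that start at 0, by group (points are samples, bars the mean and SD; MM is MM134, SF is SUM44F, SPE is SUM44PE, S is SUM44 and par. is parental). FOS and JUN points of all 6 LTED variants lie below those of their parental culture, FOSL2 points lie above it in MM134 and below it in SUM44.

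Counting a change only at a fold above 1.5 and an adjusted p under 0.001 (edgeR quasi-likelihood test with Benjamini-Hochberg adjustment over all genes tested), all 10 members passed the filter on low counts and were tested in every comparison. In MM134 LTED-A 3 members changed (FOSL2 and JUNB rose, FOS fell), where 20.3% of all genes tested did (10.5% rose, 9.82% fell). In MM134 LTED-B 4 changed (FOSL2 rose, FOS, JUN and EGR1 fell), against 15.9% of all genes (8.11% rose, 7.75% fell). In MM134 LTED-D 1 changed (FOS fell), against 17.6% (9.63% rose, 7.95% fell). In MM134 LTED-E 4 changed, all downwards (FOS, FOSB, JUN and ATF3), against 19% (8.71% rose, 10.3% fell). In SUM44 LTED-A 5 changed (ATF3 rose, FOS, FOSL2, JUN and EGR1 fell), against 13.7% (6.39% rose, 7.28% fell), and in SUM44 LTED-B 4 changed (JUND rose, FOS, JUN and EGR1 fell), against 17.3% (8.69% rose, 8.57% fell). The members therefore moved in both directions in 4 of the 6 variants. Their median log2 fold change was -0.24, -0.26, -0.33 and -0.14 in the 4 MM134 variants taken in alphabetical order, beside -0.01, 0.02, -0.03 and 0.02 over all genes tested. The members' median was -0.01 in SUM44 LTED-A, beside -0.06 over all genes, and -0.29 in SUM44 LTED-B, beside -0.09. The count in MM134 LTED-D, 1 of 10, was below the share of all genes. The counts in the other 5 variants, 3 to 5 of 10, were above it, and no test of the list was made. The members were chosen with earlier results of these data known, so these counts are not independent evidence about the list. The count of 4 in MM134 LTED-E depended on the setting: it was 2 with a replicate block (18.6% of all genes called) and with DESeq2 (9.58%, of 49006 genes with no filter), and 2 or 3 with any 1 sample left out (17.3% to 17.9%). In SUM44 LTED-A DESeq2 called 7 members in place of 5, with 9.2% of all genes called. That share is 4458 of 48481 genes with no filter, against 3669 of 26834 with edgeR.

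**Figure D2:**
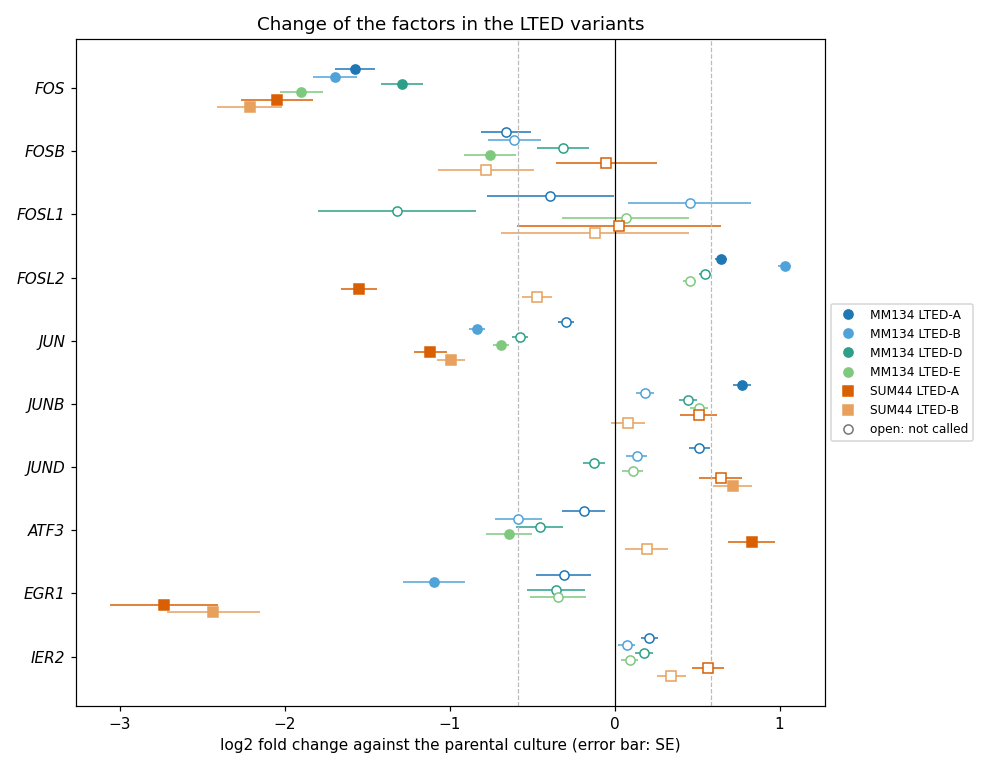
log2 fold change of each member in the 6 LTED variants against their parental culture, with its standard error (dashed lines mark the 1.5-fold limit). Filled points pass a fold above 1.5 and an adjusted p under 0.001: FOS is called in all 6, from -1.29 to -2.21, and JUN in 4, while IER2 and FOSL1 are called in none.

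FOS, the founding partner of JUN in AP-1, was lower in every LTED variant of both lines. In MM134 parental wells it had 3.80, 4.48 and 5.18 CPM, and in the LTED wells 1.09 to 1.24 (LTED-E), 1.19 to 1.49 (LTED-B), 1.39 to 1.58 (LTED-A) and 1.74 to 1.91 (LTED-D). In SUM44F it had 2.54, 2.99 and 3.03 CPM, in the samples of LTED-A 0.643 and 0.719, and in the wells of LTED-B 0.524, 0.572 and 0.766. The highest LTED well of either line lay below the lowest parental well of that line. FOS fell on the log2 scale by 1.90 in MM134 LTED-E, by 1.70 in LTED-B, by 1.58 in LTED-A and by 1.29 in LTED-D (SE 0.12 to 0.13, adjusted p 5.16e-10 to 9.05e-08), which is 2.45- to 3.73-fold lower. In SUM44 it fell by 2.21 ± 0.20 (SE) in LTED-B and by 2.05 ± 0.22 in LTED-A (adjusted p 7.51e-06 and 3.81e-05), or 4.64- and 4.14-fold. These calls also stood without SUM44F replicate 1. FOS counts were low, from 19 to 228 in a library of SUM44 and 44 to 166 in one of MM134, and no overlapping gene is annotated at chr14:75278826-75282230 (hg38, plus strand). In SUM44PE, the other parental culture, FOS had 3.53, 4.37 and 4.21 CPM, above all SUM44F wells, but the difference of 0.49 ± 0.16 was not called (adjusted p 0.0369).

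FOSB, a close relative of FOS, was lower in MM134 LTED cells by less. It had 1.66, 2.35 and 1.98 CPM in MM134 parental wells and 1.06, 1.09 and 1.36 in LTED-E, where it fell by 0.76 ± 0.16 on the log2 scale (adjusted p 0.000553). This call was lost without MM134 parental replicate 2 (-0.62, adjusted p 0.0064) or replicate 3 (-0.76, 0.00184) and without LTED-E replicate 1 (-0.71, 0.0034) or 2 (-0.68, 0.00427). With a replicate block (-0.76, 0.0012) or with DESeq2 (-0.76, 0.0018) FOSB was not called there either. Its log2 fold change was -0.31 in LTED-D, -0.61 in LTED-B and -0.66 in LTED-A, none called, with the wells of LTED-A and LTED-B below the parental ones. In LTED-A FOSB was called with at least 10 counts in every sample (-0.67, adjusted p 0.000612). It was also called there without MM134 parental replicate 1 (-0.78, 0.000512). In SUM44 it had 0.301 to 0.868 CPM in all groups together, and neither LTED-B (-0.78 ± 0.29) nor LTED-A (-0.05 ± 0.31) was called. FOSB overlaps ERCC1 on the opposite strand (chr19:45467995-45475179, plus strand), and whether counting used the strand is not given in the sources used here.

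FOSL1, which encodes the late FOS family protein FRA-1 and is known to be abundant in basal-like breast cancer cells, was close to the limit of detection. Its count was 2 to 23 in a library, and its level 0.0504 to 0.543 CPM. MM134 LTED-B had the highest group mean, 0.412 ± 0.12 CPM (SD, n = 3), and SUM44PE the lowest, 0.0921 ± 0.0615. The wells of MM134 LTED-D, with 4, 2 and 7 counts, lay below all MM134 parental wells, with 14, 8 and 9, but the log2 difference of -1.32 ± 0.48 was not called (adjusted p 0.0274). No change of FOSL1 was detectable in any of the other 5 variants at this depth, where the log2 fold changes ran from -0.39 to 0.45 with SE of 0.37 to 0.62.

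FOSL2, which encodes FRA-2, a FOS family protein that lacks the strong activating domain of FOS, had its samples above the parental wells in all 4 MM134 variants and below them in both SUM44 variants. MM134 parental wells had 36.6, 36.2 and 35.9 CPM. The LTED wells had 72.4 to 76.2 (LTED-B), 54.0 to 60.6 (LTED-A), 51.5 to 53.3 (LTED-D) and 48.1 to 50.0 (LTED-E). Every MM134 LTED well was thus above every parental well, and the wells of a group lay close together. FOSL2 rose by 0.65 ± 0.04 on the log2 scale in LTED-A and by 1.03 ± 0.04 in LTED-B (adjusted p 3.34e-11 and 5.78e-14). In LTED-D and LTED-E the log2 fold changes of 0.55 ± 0.04 and 0.45 ± 0.04 had adjusted p of 6.44e-10 and 7.47e-09 but were under the 1.5-fold limit. SUM44F had 121, 109 and 92.7 CPM and LTED-A 37.0 and 36.3, a fall of 1.55 ± 0.11 on the log2 scale (2.93-fold, adjusted p 1.68e-06). LTED-B had 73.3, 80.2 and 79.6 CPM, also below all SUM44F wells, at a log2 fold change of -0.47 ± 0.09 that was not called (adjusted p 0.00182). Without SUM44F replicate 1 FOSL2 still fell in LTED-A, by 1.46. FOSL2 (chr2:28392448-28417317, plus strand) overlaps the antisense gene FOSL2-AS1.

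JUN, the partner that FOS proteins need to bind DNA, was below parental wells in all 6 variants. It had 24.4, 26.6 and 25.2 CPM in MM134 parental wells, and its LTED wells 13.7 to 14.7 (LTED-B), 15.3 to 15.9 (LTED-E), 16.1 to 17.7 (LTED-D) and 19.9 to 21.9 (LTED-A). SUM44F had 26.2, 27.1 and 25.8 CPM, SUM44 LTED-A 11.4 and 12.8 and LTED-B 12.2, 14 and 13.5. The parental wells of the lines overlapped, at 25.4 ± 1.15 CPM in MM134 and 26.4 ± 0.65 in SUM44F (SD, n = 3 each; log2 difference -0.05 ± 0.06). JUN fell by 0.83 ± 0.05 on the log2 scale in MM134 LTED-B and by 0.69 ± 0.05 in LTED-E (adjusted p 7.1e-11 and 6.56e-10). In SUM44 LTED-B it fell by 0.99 ± 0.09, 1.99-fold (adjusted p 6.5e-06), and in SUM44 LTED-A by 1.12 ± 0.10, 2.17-fold (adjusted p 9.27e-06). In MM134 LTED-D the log2 fold change of -0.57 ± 0.05 is 1.49-fold, just under the limit, and it was called without MM134 parental replicate 1 (-0.60) or LTED-D replicate 1 (-0.60). In LTED-A the value was -0.30 ± 0.05. JUN lies at chr1:58776845-58784048 on the minus strand, with no overlapping gene annotated.

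JUNB, a JUN family protein that pairs with FOS proteins and can restrain JUN, had its samples above the parental wells in 5 of the 6 variants. MM134 parental wells had 28.2, 29.2 and 31.3 CPM and LTED-A wells 48.7, 48.8 and 54.7, a rise of 0.77 ± 0.05 on the log2 scale (adjusted p 4.08e-10). The wells of the other 3 variants, with 31.4 to 42.7 CPM, were all above the parental ones, and their log2 fold changes of 0.51 (LTED-E), 0.44 (LTED-D) and 0.19 (LTED-B) did not reach the 1.5-fold limit. SUM44F had 23.5, 22.0 and 20 CPM, LTED-A 29.4 and 32.7, and LTED-B 20, 24.0 and 25.1, with log2 fold changes of 0.51 ± 0.11 and 0.08 ± 0.10 that were not called. Only SUM44 LTED-B overlapped its parental wells. JUNB (chr19:12791486-12793315, plus strand) overlaps HOOK2 on the opposite strand.

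JUND, the JUN family protein that is present in resting cells, was called in 1 variant. SUM44F wells had 34.3, 33.8 and 27.8 CPM and LTED-B wells 44.8, 50.9 and 61.5, a rise of 0.72 ± 0.12 on the log2 scale (adjusted p 0.000629). The call was lost without SUM44F replicate 1 (0.77, adjusted p 0.00104), replicate 2 (0.76, 0.00209) or replicate 3 (0.63, 0.00249), and without LTED-B replicate 2 (0.74, 0.0027) or 3 (0.58, 0.0027). With a replicate block (0.71, 0.00126) or with SUM44PE as parental culture (0.58, 0.00136) JUND was not called in LTED-B either. SUM44 LTED-A, with 48.1 and 51.5 CPM, was also above all SUM44F wells, at 0.64 ± 0.13 (adjusted p 0.0029, not called). There JUND was called with DESeq2 (0.69, adjusted p 2.57e-05) and with no filter on low counts (0.66, 3.35e-05). It was also called with the LTED-A libraries kept as 3 samples (0.68, 0.00064). In MM134 the parental wells had 65.2, 69.7 and 69.9 CPM and LTED-A 89.9, 92.7 and 111, a log2 fold change of 0.51 ± 0.06 under the 1.5-fold limit. The other 3 MM134 variants differed from parental cells by -0.13 to 0.13. JUND lies at chr19:18279694-18281622, minus strand.

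ATF3, a stress-induced bZIP protein of the ATF family that can pair with JUN, stood higher in SUM44 than in MM134. MM134 parental wells had 3.23, 2.91 and 2.69 CPM and LTED-E wells 1.90, 1.91 and 1.83, a fall of 0.64 ± 0.14 on the log2 scale (adjusted p 0.000723). This call was lost without parental replicate 1 (-0.57, adjusted p 0.00563) or 2 (-0.65, 0.00253) and without LTED-E replicate 1 (-0.65, 0.00263), 2 (-0.65, 0.00278) or 3 (-0.61, 0.00444). With a replicate block (-0.64, 0.00161) or with DESeq2 (-0.65, 0.00131) ATF3 was not called in LTED-E either. The wells of LTED-B and LTED-D were also below the parental wells, at log2 fold changes of -0.58 and -0.46 that were not called, and those of LTED-A overlapped them. With no filter on low counts ATF3 was called in LTED-B (-0.60, adjusted p 0.000938). SUM44F had 6.10, 5.66 and 5.65 CPM and SUM44 LTED-A 8.58 and 12, a rise of 0.83 ± 0.14 (adjusted p 0.000976). The higher of the LTED-A values is the mean of replicates 2 and 3, and without it, with LTED-A at 1 sample that is assumed to vary like the other groups, the log2 fold change was 0.56 (adjusted p 0.00691). The call was also lost without SUM44F replicate 1 (0.87, 0.00212), 2 (0.83, 0.00483) or 3 (0.84, 0.00367). With RLE size factors (0.87, 0.00113) and with a replicate block (0.84, 0.00196) ATF3 was not called there either. SUM44 LTED-B, with 6.55 to 6.75 CPM, lay just above the SUM44F wells, at 0.19 ± 0.13. ATF3 lies at chr1:212565334-212620777, plus strand.

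EGR1, a zinc finger protein that ERK signalling induces through serum response factor, showed the largest fall of any member, in SUM44. SUM44F had 2.10, 1.64 and 1.54 CPM and SUM44PE 1.52, 1.52 and 1.39. SUM44 LTED-A had 0.346 and 0.210 CPM and LTED-B 0.452, 0.297 and 0.262, so that the highest LTED sample, 0.452, lay below the lowest parental well of either culture, 1.39. EGR1 fell by 2.73 ± 0.33 on the log2 scale in LTED-A and by 2.43 ± 0.28 in LTED-B (adjusted p 8.7e-05 and 5.17e-05), 6.64- and 5.40-fold. The LTED libraries held only 12 to 24 counts of EGR1, and without the combined replicates 2 and 3 of LTED-A its fall of 2.34 there was no longer called (adjusted p 0.00248). Without SUM44F replicate 1 EGR1 fell by 2.60 in LTED-A and was called. In MM134 the parental wells had 2.0, 2.59 and 1.62 CPM, and LTED-B, with 0.975, 1.04 and 0.896, was the only variant whose wells did not overlap them (a fall of 1.10 ± 0.19, adjusted p 6.54e-05). The other 3 MM134 variants had log2 fold changes of -0.31 to -0.35 with SE of 0.17 to 0.18, and none was called. EGR1 lies at chr5:138465479-138469303, plus strand.

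IER2, a nuclear protein of the immediate early response without a bZIP domain, was called in no comparison by the main edgeR test. It had 26.8, 29.9 and 26.9 CPM in MM134 parental wells, and 27.8 to 34.7 over the 12 wells of the MM134 variants, with log2 fold changes of 0.07 to 0.21. SUM44F had 23.7, 23.3 and 19.7 CPM, LTED-A 31.5 and 34.1, and LTED-B 26.8, 28.3 and 29.4, all above the SUM44F wells. The log2 fold change in SUM44 LTED-A, 0.57 ± 0.10 (adjusted p 0.000991), was under the 1.5-fold limit. There IER2 was called with DESeq2 (0.61, adjusted p 2.42e-05) and with SUM44PE as parental culture (0.74, 4.64e-05). It was also called with the LTED-A libraries kept as 3 samples (0.61, 0.000147). IER2 (chr19:13150411-13154911, plus strand) overlaps antisense transcripts.

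Between LTED variants of one line few members differed. In MM134, LTED-A exceeded LTED-B in JUNB by 0.59 ± 0.05 on the log2 scale (adjusted p 4.38e-08; 7.06% of all genes were called) and LTED-D in JUND by 0.64 ± 0.06 (1.27e-07; 9.88% of all genes). Both values sat near the 1.5-fold limit. JUNB was not called without LTED-A replicate 3 (0.53) or LTED-B replicate 3 (0.54), when no member was, and JUND was not called without LTED-A replicate 3 (0.54). The other 4 pairs of MM134 variants had no member called by edgeR or by DESeq2, where 7.84% (LTED-A against LTED-E), 7.4% (LTED-B against LTED-D), 9.78% (LTED-B against LTED-E) and 11.6% (LTED-D against LTED-E) of all genes were. Of the 10 members, 7, 7, 4 and 6 had an unadjusted p under 0.05 in those pairs. FOS was 0.61 ± 0.14 higher in LTED-D than in LTED-E (adjusted p 0.00183, not called). In SUM44, LTED-A was below LTED-B in FOSL2 by 1.08 ± 0.11, 2.12-fold (adjusted p 4e-05; 7.42% of all genes were called), and the call was lost without LTED-A replicate 1 (-1.07, adjusted p 0.00153), when no member was called. That fit leaves LTED-A with 1 sample, which is assumed to vary like the other groups.

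The parental cultures were compared next. SUM44PE and SUM44F had no member called by edgeR or by DESeq2, against 5.57% of all genes, and 3 members had an unadjusted p under 0.05. MM134 and SUM44F parental cells differed in 5 members, where 38.1% of all genes were called. MM134 was higher in FOS by 0.66 ± 0.13 on the log2 scale, in FOSB by 1.60 ± 0.22 and in JUND by 1.10 ± 0.10, and lower in FOSL2 by 1.57 ± 0.06 and in ATF3 by 0.98 ± 0.13. The FOS call was lost without MM134 parental replicate 3 (0.52, adjusted p 0.0028) or SUM44F replicate 3 (0.55, 0.00198). The LTED variants of the 2 lines were then set against each other by the mean response in MM134 (4 variants) less the mean response in SUM44 (2 variants), fitted over all 9 groups. It differed in 3 members, where 21% of all genes were called. The difference was 1.67 ± 0.08 for FOSL2 (adjusted p 3.35e-15), 2.07 ± 0.25 for EGR1 (1.62e-07) and -0.99 ± 0.16 for ATF3 (1.32e-05). For FOS it was 0.51 ± 0.17 (adjusted p 0.0167) and for JUN 0.45 ± 0.07 (1.7e-05), neither called. The LTED contrasts of a line share their parental wells, so that their values are not independent of each other.

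The spread between wells set how finely each member could be read. The coefficient of variation (CV) of a group, median over the 9 groups, was 2.18% for FOSL2, 4.67% for JUN, 5.71% for IER2, 6.23% for JUNB and 6.47% for JUND. It was 9.57% for FOS, 10.2% for ATF3, 16.6% for FOSB, 16.7% for EGR1 and 33.0% for FOSL1, the members with fewest counts. The median CV of all genes at a mean of 1 CPM or more was between 3.52% (MM134 LTED-E) and 9.48% (SUM44 LTED-A). FOS varied most among the wells of SUM44 LTED-B, with a CV of 20.6% and a highest value 1.46 times the lowest. This is less than the 2.45-fold smallest fall of FOS in an LTED variant. FOSL2 varied most in SUM44F, at 13.1%, where replicate 1 was the highest well.

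**Figure D3:**
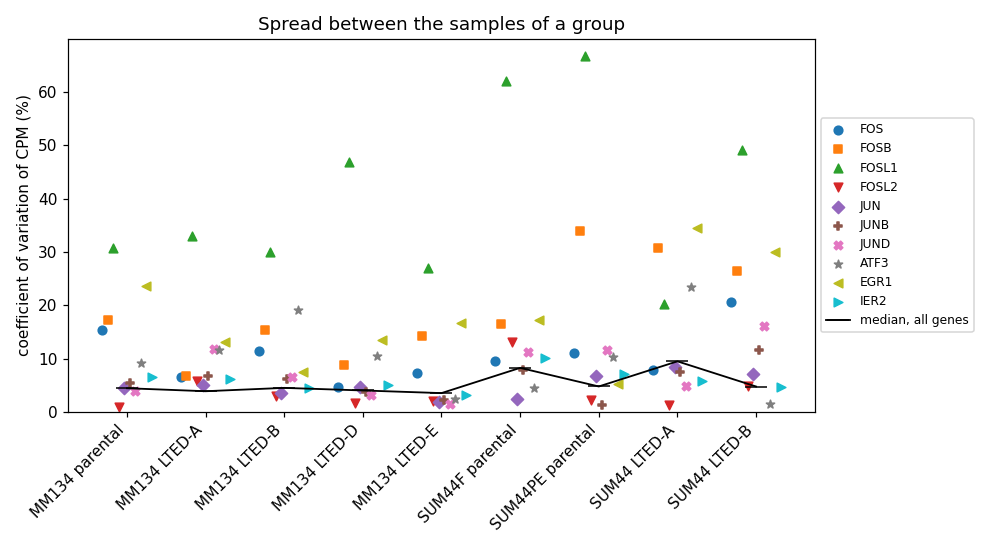
CV of CPM between the samples of each of the 9 groups, in percent, with 1 point for each member and the median over all genes as a black line. FOSL1 points reach 66.7% in SUM44PE, and FOSL2, with a median of 2.18%, lies near or below the line in most groups.

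Lists of related genes gave the surroundings of the 10 members, each read against the share of all genes called above. Among 22 other immediate early genes, of which 21 were tested, in MM134 8 rose and 4 fell (LTED-A), 5 and 5 (LTED-B), 6 and 3 (LTED-D) and 6 and 4 (LTED-E). In SUM44, 3 rose and 3 fell in LTED-A and 1 rose and 3 fell in LTED-B. The median log2 fold change of the list was between -0.06 and 0.32 in the 6 variants. PPP1R15A, which restarts translation after stress, fell in all 6 variants, by 0.65 to 1.39 on the log2 scale. EGR3, a relative of EGR1, fell in all 4 MM134 variants, from 6.06 ± 0.21 CPM in parental cells to 0.328 ± 0.075 in LTED-A (a fall of 4.17 ± 0.17). In SUM44 LTED-B EGR3 rose by 1.81 ± 0.30, a call that was lost without SUM44F replicate 1 (1.58). KLF2, a zinc finger factor, and ZFP36, which destabilises cytokine RNA, rose in 5 of the 6 variants, all but SUM44 LTED-B, KLF2 by 1.23 to 2.35 and ZFP36 by 0.71 to 1.45.

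The other bZIP proteins that can pair with AP-1 subunits (11 genes, 10 tested in MM134 and 9 in SUM44) moved both ways too. In MM134 2 rose and 2 fell in LTED-A, 0 and 3 in LTED-B, 3 and 3 in LTED-D and 3 and 2 in LTED-E, and in SUM44 1 and 2 in LTED-A and 2 and 2 in LTED-B. Their median log2 fold change was between -0.33 and 0.15. MAFF, a small MAF protein without an activating domain, rose in 5 variants by 0.75 to 1.71 on the log2 scale, and in MM134 LTED-B its value was 0.41 ± 0.06. MAF fell in all 4 MM134 variants by 1.73 to 3.66 and was not tested in SUM44. BATF3 rose in MM134 LTED-A, LTED-D and LTED-E by 1.19 to 1.76.

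The upstream factors and kinases (17 genes, all tested) had 2 to 5 genes called in a variant and a median log2 fold change of -0.08 to 0.23 in the 6 variants. MAPK3, which encodes ERK1, rose in 5 variants by 0.72 to 1.17 on the log2 scale and had 0.52 ± 0.05 in MM134 LTED-E. MRTFB, a coactivator of serum response factor, rose by 0.96 ± 0.04 in MM134 LTED-D and fell by 1.03 ± 0.04 in LTED-A and 0.93 ± 0.04 in LTED-E. MAPK9 (JNK2) fell by 0.99 ± 0.03 in MM134 LTED-B and rose by 0.69 ± 0.08 in SUM44 LTED-A. RPS6KA3 (RSK2) fell by 0.76 ± 0.04 in MM134 LTED-B and rose by 0.87 ± 0.08 in SUM44 LTED-B.

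The feedback and output genes of ERK signalling (11 genes, all tested) had 5 to 7 genes called up and 1 or 2 called down in each MM134 variant. In MM134 7 rose and 1 fell in LTED-A, 5 and 1 in LTED-B, 6 and 2 in LTED-D and 6 and 1 in LTED-E. In SUM44 3 rose and 3 fell in LTED-A and 5 rose and 3 fell in LTED-B. Their median log2 fold change was 0.57 to 0.92 in MM134, and 0.29 and 0.54 in SUM44. DUSP4, a phosphatase of ERK and JNK, rose in all 6 variants by 1.63 to 1.87 on the log2 scale, from 242 ± 1.9 to 785 to 879 CPM in MM134. SPRY1, an inhibitor of receptor tyrosine kinase signalling, rose from 1.17 ± 0.0062 CPM in MM134 parental cells to between 27.6 and 93.6 in the variants, and in SUM44 by 0.99 and 1.06 on the log2 scale. SPRY4 rose in 5 variants and fell by 0.97 ± 0.16 in SUM44 LTED-A, a call that was lost without SUM44F replicate 1. DUSP5, a nuclear ERK phosphatase, fell in MM134 LTED-B, LTED-D and LTED-E by 0.87 to 1.53 and rose in SUM44 LTED-A and LTED-B by 0.98 and 1.29.

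Of 15 genes often cited as AP-1 targets, 10 were tested. In MM134 3 rose and 5 fell in LTED-A, 1 and 5 in LTED-B, 0 and 4 in LTED-D and 2 and 4 in LTED-E, and in SUM44 2 and 7 in LTED-A and 1 and 7 in LTED-B. Their median log2 fold change was -0.25 to -0.74 in MM134, and -2.31 and -2.18 in SUM44. The 10 genes tested were not the same in the lines, with MMP9 among them in MM134 and MMP10 in SUM44. MMP10, at -10.5 and -3.98 in the SUM44 variants, was not called. It no longer passed the filter without SUM44F replicate 1, so that the SUM44 medians rest in part on that well. Between the parental cultures, SUM44PE against SUM44F, 2 genes of the list were called up and 4 down, with a median log2 fold change of -0.70. Of all genes, 5.57% were called there. CD44 and TIMP1 fell in all 6 variants. CD44, a hyaluronan receptor, went from 14.3 ± 1.7 CPM in MM134 parental cells to 0.200 to 2.20 in the variants, and in SUM44 from 293 ± 17 to 117 ± 14 in LTED-A and 124 ± 4.4 in LTED-B. TIMP1, an inhibitor of metalloproteinases, had 11.7 CPM in MM134 parental cells and at most 3 counts in a library of LTED-D, at least 121-fold lower against a floor of 3 counts per library, and 64.4 ± 11 CPM in SUM44F against 9.70 and 13.8 in the variants. MMP9 fell in the 4 MM134 variants by 2.46 to 3.43. These genes are also expressed by fibroblasts, and the calls of CD44 and TIMP1 in SUM44 stood without SUM44F replicate 1. Without that well the fibroblast marker COL3A1 was still called down in SUM44 LTED-A (-3.81) and LTED-B (-4.14), and COL1A1, DCN and PDGFRB were not called. The endothelial markers PECAM1 and VWF were also still called down in both. In MM134 the fibroblast marker sum and COL1A1 moved the same way as CD44, TIMP1 and MMP9. The calls of these 3 genes stood in all 4 variants without MM134 parental replicate 3, and in LTED-D without its replicate 2. The part of fibroblast RNA in these values was not tested.

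**Figure D4:**
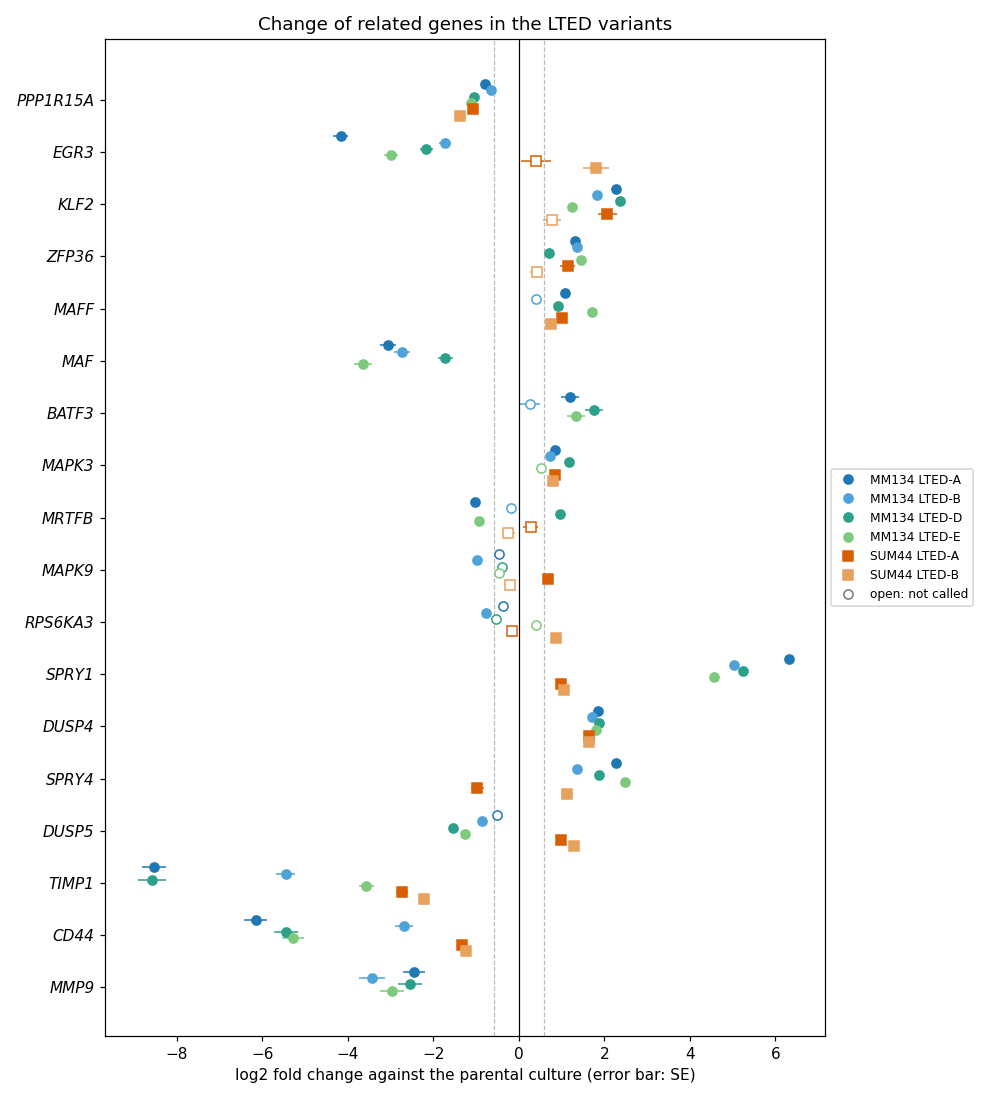
log2 fold change of the named genes of each related list in the 6 LTED variants against their parental culture, with its standard error, where filled points are called and TIMP1 in MM134 LTED-A and LTED-D rests on at most 4 counts in a library. PPP1R15A, CD44 and TIMP1 are below 0 and DUSP4 and SPRY1 above 0 in all 6.

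The genes whose pattern over the 9 group means was most like that of FOS, JUN and EGR1 were listed among 17074 genes, by Pearson r of log2(CPM + 1) centred within each line. For FOS they were SEMA6C (0.982), GMFB (0.978), STC1 (0.976), CALD1 (0.973) and ADAMTS12 (0.970). For JUN they were ATP6V1D (0.989), PLEKHA6 (0.966), ACTR10 (0.958), CPEB4 (0.957) and PGM2L1 (0.956). For EGR1 they were PLEKHA8 (0.974), NME5 (0.971), ATP6V1D (0.968), ENSG00000271833 (0.966) and RHOBTB3 (0.955). These values are the highest of many over 9 means that share parental groups, and they describe these samples.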

How the data were processed

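Per the labels and the methods of the study, stranded total RNA libraries were sequenced and the authors estimated counts per gene with Salmon 0.6.0 and Ensembl release 82 (submitters' processing notes). Trimming and the strand setting of the counting are not given in the sources used here. The deposited values are expected counts that need not be whole, for 60619 genes and 27 libraries, and they were rounded. Microarray and qPCR data were not analysed here. The members and the lists of related genes were chosen with earlier results of these data known.

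Symbols and positions came from GENCODE 44 (hg38) by Ensembl identifier. SUM44 LTED-A replicates 2 and 3 were averaged into 1 sample. Genes were filtered (filterByExpr), scaled by TMM and tested with the quasi-likelihood F-test of edgeR 4.0.16 (limma 3.58.1, R 4.3.3), two-sided, within each line, with all genes tested adjusted by Benjamini-Hochberg (26061 genes in MM134, 26834 in SUM44, 27457 with SUM44PE added and 29608 over all 9 groups). A change was called at a fold above 1.5 and an adjusted p under 0.001, the thresholds of the study. Standard errors (SE) are the log2 fold change divided by the square root of F. CPM use TMM-scaled library sizes, and the CPM per kb divide by exon length. Named were all 10 members in every group, the 4 genes of each list called in the most LTED variants (ties by mean absolute log2 fold change), and the 5 genes most alike to FOS, EGR1 and JUN. Results for some single genes that this rule names are not reported here. Alternatives were DESeq2 1.42.0, RLE size factors, other filters and thresholds, a replicate block, SUM44PE as parental culture, and leaving out each sample. Scripts were tested on simulated data.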

Additional observations from a re-analysis of the deposited data

Results flagged for a closer look

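A difference between the LTED responses of the 2 lines was seen in 3 members by the test of the difference itself (MM134 minus SUM44, log2): FOSL2 at 1.67, EGR1 at 2.07 and ATF3 at -0.99. Variants of one line differed in a further 3 results: FOSL2 by -1.08 between SUM44 LTED-A and LTED-B, JUNB by 0.59 between MM134 LTED-A and LTED-B, and JUND by 0.64 between MM134 LTED-A and LTED-D. The last 2 lie near the 1.5-fold limit.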

How the results depend on the processing

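Counting error limits FOSL1 (2 to 23 counts) and EGR1 in SUM44 LTED cells (12 to 24 counts), and libraries are wells of 1 culture. Of 29 called results for single members in the LTED, parental and between-line comparisons, 23 kept their call and direction under every alternative run. The 6 that did not were FOSB and ATF3 in MM134 LTED-E, ATF3 and EGR1 in SUM44 LTED-A, JUND in SUM44 LTED-B and FOS between parental lines. The counts for the lists of related genes under alternatives, leaving out SUM44F replicate 1, MM134 parental replicate 3 or MM134 LTED-D replicate 2 among them, were chosen after seeing the data.

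Direction reversed in 20 values of 4 genes, none of them called, and the cause was not tested. Leaving out 1 sample moved FOSL1 from -0.14 to 0.33 in MM134 LTED-E, from -0.34 to 0.35 in SUM44 LTED-A, from -0.57 to 0.22 in SUM44 LTED-B and from -0.57 to 0.12 between the line responses. It moved FOSB from -0.31 to 0.27 in SUM44 LTED-A (0.10 without SUM44F replicate 3) and from -0.069 to 0.34 between SUM44PE and SUM44F, and JUN from -0.056 to 0.052 between SUM44PE and SUM44F, which had 0.0021 with no filter. FOSL1 had -0.025 in SUM44 LTED-A with its libraries as 3 samples, and FOSB 0.010 there with DESeq2. With SUM44PE as parental culture, SUM44 LTED-B had 0.94 for FOSL1 and -0.27 for JUNB.

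Replicate numbers did not pair the samples: 7 of 30 same-numbered pairs in MM134 and 3 of 12 in SUM44 had a correlation above 0.1. Shares or counts in parentheses are those of all genes called in the same setting. With samples left out, such shares are given only for MM134 LTED-E, further above. The counts for the lists of related genes below are given without shares of their own. Counts without a share show only how far they moved between settings. The replicate block left 2 members called in MM134 LTED-E in place of 4 (18.6%), and so did DESeq2 (9.58%). The block left 4 in SUM44 LTED-A in place of 5 (3206 of 26834 genes called) and 3 in SUM44 LTED-B in place of 4 (4324 of 26834). DESeq2 called 7 in SUM44 LTED-A (4458 of 48481 genes, with no filter). At an adjusted p under 0.05, members called were 2 in place of 1 in MM134 LTED-D (23.5%), SUM44 LTED-A against LTED-B (14.5%) and MM134 LTED-A against LTED-B (9.98%), 2 in place of 0 in MM134 LTED-B against LTED-D (12.1%) and LTED-D against LTED-E (17.1%), and 1 in LTED-B against LTED-E (14.1%), with 7 in place of 4 other immediate early genes in SUM44 LTED-B. With no filter they were 2 in MM134 LTED-D (9.83%) and in LTED-A against LTED-B (4.11%). With at least 10 counts in every sample they were 2 in MM134 LTED-D (19.4%) and 0 in LTED-A against LTED-B (7.64%), and the AP-1 targets called fell to 3, 2, 0 and 1 in the MM134 variants, in alphabetical order, from 8, 6, 4 and 6, as fewer genes were tested. With SUM44PE as parental culture, 3 in place of 5 upstream genes and 4 in place of 8 ERK feedback genes were called in SUM44 LTED-B, and 5 in place of 9 AP-1 targets in SUM44 LTED-A. Leaving out each sample in turn gave 3 to 4, 4, 1 to 2 and 2 to 3 members in the MM134 variants and 3 to 5 and 3 to 4 in the SUM44 variants, 0 for SUM44PE, 4 to 5 between parental lines, 3 to 4 between line responses, and 0 to 1 over the pairs of variants. In the same order of variants it gave 8 to 8, 6 to 7, 3 to 4, 6 to 6, 8 to 9 and 7 to 8 AP-1 targets, 7 to 8, 6 to 8, 7 to 8, 6 to 7, 5 to 6 and 7 to 8 ERK feedback genes, and 3 to 4, 3, 6 to 7, 5 to 6, 2 to 4 and 4 bZIP partners. It gave 12 to 13, 9 to 10, 8 to 10, 10, 4 to 6 and 3 to 4 other immediate early genes, and 2 to 3, 3, 2 to 3, 1 to 2, 2 to 3 and 5 to 6 upstream genes.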
